A study of Mus musculus with 6 samples.

Results

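The collagen genes were described in HK-2 cells, a human cell line from the proximal tubule of the kidney, with and without overexpression of USAG-1. They were chosen by name alone, as rows whose symbol is COL, a number, A and a number, and 42 of the 39234 genes in the deposited table met this rule. RNA was sequenced from 6 libraries of HK2 cells, of which 3 were labelled as control and 3 as USAG-1 overexpression (USAG1_OE). All 6 carry the genotype label WT, and no treatment other than the overexpression is given for any of them. According to the study's methods, overexpression in cells was made by transient transfection of an expression plasmid, so a culture can hold transfected and untransfected cells. The labels do not say whether the control cells carried an empty plasmid, nor whether the replicates were separate cultures, and p-values therefore measure only the spread between these libraries. Mouse is the organism in the labels, but the genes in the table carry human Ensembl identifiers and the submitters' processing notes name the human build hg38, to which all positions given here refer.

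Collagens are secreted proteins of the extracellular matrix in which chains wind into a triple helix. The fibrillar collagens (types I, II, III, V, XI, XXIV and XXVII) build or regulate fibrils, and collagen IV forms the sheet-like network of basement membranes, including the tubular basement membrane on which proximal tubule cells rest. The remaining types include the FACITs, which sit on the surface of fibrils, the beaded filaments of collagen VI, the networks of collagens VIII and X, the multiplexins XV and XVIII, transmembrane collagens and collagen VII of the anchoring fibrils. Before secretion, the chains are hydroxylated and folded in the endoplasmic reticulum, and outside the cell they are trimmed and cross-linked by lysyl oxidases. By class the 42 genes held 11 fibrillar collagens, 6 chains of collagen IV and 25 others.

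SOSTDC1, which encodes USAG-1, had 60 to 80 counts in control and 3907 to 5072 counts in USAG-1-overexpressing libraries, so the labels fit the gene that was overexpressed. Library totals were between 41236194 and 48699471 counts in control cells and between 42782931 and 45448720 in USAG-1-overexpressing cells. Levels are in CPM, which are counts scaled to the TMM-adjusted total of their library, and on this scale 3 counts, the limit that a count of 0 allows, equal 0.0608 to 0.0719 CPM. Such limits cover counting error only. In every library more genes held 4 counts than 3 or 5 (in control replicate 1, for example, 1422 genes against 800 and 491), so 1 RNA molecule may have added more than 1 count. Mitochondrially encoded genes took 4.80% to 5.59% of the counts in control and at most 1.55% in USAG-1-overexpressing libraries. Control replicate 3 stood apart, with a chi-square per degree of freedom of 42.3 and 42.7 against the other control libraries, whereas the other pairs within a group had 6.52 to 8.35. Collagen genes whose call depends on it are given with and without it.

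Cell type markers were read in the same libraries. Of 9 proximal tubule markers in the table, LRP2 was at 0 in every library, and CUBN, AQP1 and SLC3A1 were among those that did not pass the filter on low counts, so these defining markers of the labelled cell type were absent or nearly so. GGT1 was present at 85.1 to 116.5 CPM in control and 137.1 to 164.4 CPM with USAG-1 overexpression, and ANPEP, SLC5A2 and SLC34A1 were tested at 0.164 to 3.61 CPM in any library. The summed level of the list was 90.2 to 120.2 CPM in control and 141.3 to 169.0 CPM in USAG-1-overexpressing libraries, nearly all of it from GGT1, the only gene of the list called (higher). The 7 markers of kidney epithelium summed to 1822 to 2267 CPM in control and 2087 to 2196 CPM with USAG-1 overexpression, with 1 gene called higher. Of 6 fibroblast markers in the table, POSTN was at 0 and PDGFRA was under the filter. The list summed to 39.0 to 40.1 CPM in control and 51.8 to 56.0 CPM with USAG-1 overexpression. Most of it came from LUM, with 33.0 to 34.6 CPM in control and 48.0 to 51.0 CPM with USAG-1 overexpression. LUM was the only fibroblast marker called (higher), and the other tested markers PDGFRB, THY1 and ACTA2 had log2 fold changes of -0.39, -0.23 and -0.35 that were not called. All 10 T cell markers were called lower, and their sum changed from 70.3 to 86.2 CPM in control libraries to 7.88 to 10.9 CPM in USAG-1-overexpressing libraries. The part of these shifts in the collagen results was not tested. In such bulk libraries, fewer cells of a type and less RNA per cell cannot be told apart.

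Of the 42 collagen genes, 25 passed the filter on low counts and were tested, and 6 of these differed between the groups at an adjusted p under 0.05 in the quasi-likelihood test of edgeR, with p-values adjusted over all 18188 genes tested (Benjamini-Hochberg). COL11A1, COL12A1 and COL8A2 rose to between 1.27 and 1.34 times their mean control level, and COL14A1, COL9A2 and COL8A1 fell, COL14A1 to 0.483 times its control level. The 6 genes are 24.0% of the collagen genes tested, against 15.9% of all genes tested that were called in either direction, 8.95% called higher and 6.91% called lower. The share among collagen genes rests on few genes, and nothing particular to collagens is read from it. The median log2 fold change of the 25 genes was -0.01, with 12 above and 13 below 0, and the median over all genes tested was -0.02. In 9 of the 25 genes the 3 control and 3 USAG-1-overexpressing values did not overlap, as in 37.6% of all genes tested.

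**Figure D1:**
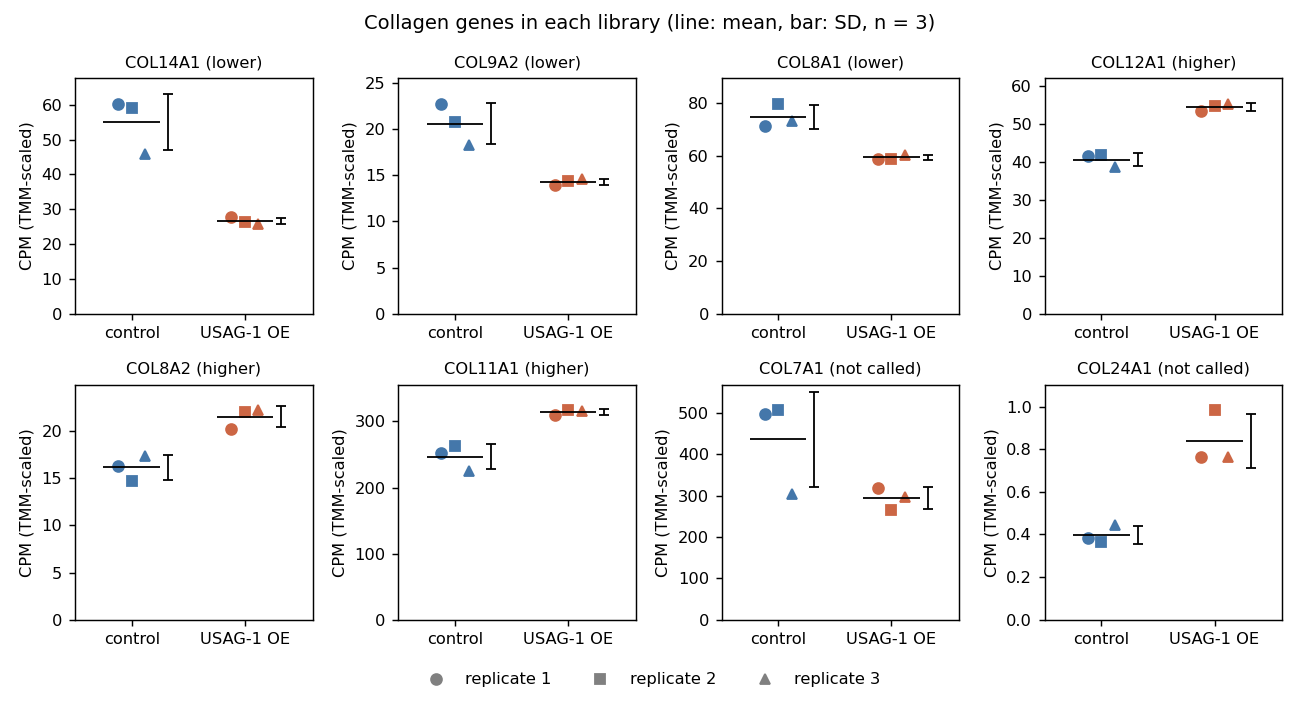
Level in CPM (vertical axis, from 0) of 8 collagen genes in the 3 control and 3 USAG-1-overexpressing libraries, with each replicate as a point, the mean as a line and the SD as a bar. The groups do not overlap in the 6 called genes or in COL24A1, and in COL7A1 control replicate 3, at 304 CPM, lies among the USAG-1-overexpressing libraries.

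As a whole, collagen reads took a similar share of each library. Collagen genes held 0.461%, 0.468% and 0.408% of the counts in the control libraries and 0.427%, 0.428% and 0.429% in the USAG-1-overexpressing libraries (two-sided exact permutation test, p = 0.4, where 3 libraries against 3 allow no p below 0.1). By this share, control replicate 3 was the lowest of all and the other control libraries were the highest. In CPM, collagen genes summed to 4554, 4620 and 4265 in the control libraries and 4228, 4299 and 4255 with USAG-1 overexpression (two-sided exact permutation test, p = 0.2). On that scale control replicate 3 lay among the USAG-1-overexpressing libraries. Chains of collagen IV took 53.9% to 58.0% of the collagen counts in control and 55.8% to 56.8% in USAG-1-overexpressing libraries. Fibrillar collagens took 6.64% to 7.44% of the collagen counts in control and 8.81% to 8.98% in USAG-1-overexpressing libraries, without overlap. These are shares of reads and are not corrected for transcript length, which the table does not give, so the levels of different collagen genes were not ranked.

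Among the fibrillar collagens, 6 of 11 genes were tested and 1, COL11A1, was called. This is 16.7%, near the 15.9% of all genes tested that were called. COL11A1 (ENSG00000060718; chromosome 1, 102876467 to 103108872) encodes a chain of collagen XI, a minor fibrillar collagen that regulates the diameter of fibrils. Its level was 252.7, 262.6 and 225.1 CPM in the control libraries and 309.4, 317.5 and 315.4 CPM with USAG-1 overexpression. Every USAG-1-overexpressing library was thus above every control library. The log2 fold change was 0.35 (SE, the standard error, 0.07, adjusted p = 0.0115 by edgeR's quasi-likelihood test). COL11A1 lost significance when any of the 3 USAG-1-overexpressing libraries was left out (highest adjusted p 0.0599, same test), with log2 fold changes from 0.29 to 0.39 across all alternatives. COL11A1 also accounts for most fibrillar reads, since it took 5.28% to 5.68% of the collagen counts in control and 7.32% to 7.41% in USAG-1-overexpressing libraries.

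The other fibrillar genes were not called. COL1A1 (ENSG00000108821; chromosome 17, 50184101 to 50201632), a chain of collagen I, the main fibrillar collagen of scar tissue, had 6.30, 6.04 and 7.15 CPM in control and 7.51, 6.76 and 6.44 CPM with USAG-1 overexpression. The groups overlapped, and the log2 fold change was 0.09 (SE 0.14). COL1A2, the other chain of collagen I, was at 0 counts in all 6 libraries, and COL3A1, the gene of collagen III, was at 0 in 5 libraries and at 4 counts in control replicate 3. COL5A2, a chain of collagen V, had 45 to 72 counts in control and 60 to 70 with USAG-1 overexpression (log2 fold change 0.26, SE 0.29). COL5A1, its usual partner chain, had at most 4 counts in any library. COL24A1, the gene of collagen XXIV, had 16, 18 and 19 counts in control and 35, 43 and 33 counts with USAG-1 overexpression. These values did not overlap, at a log2 fold change of 1.07 (SE 0.34, adjusted p = 0.0698 by edgeR's quasi-likelihood test). COL24A1 was called when only genes with at least 10 counts in every library were tested (adjusted p = 0.0311, same test). That fit called 19% of its genes, and the other 13 alternatives did not call COL24A1 (highest adjusted p 0.217, same test). COL11A2, another chain of collagen XI, had 15 to 41 counts in control and 32 to 59 with USAG-1 overexpression (log2 fold change 0.67, SE 0.43, and 0.38 without control replicate 3). COL27A1, the gene of collagen XXVII, had 76.6, 71.4 and 48.8 CPM in control and 58.7, 50.9 and 56.7 CPM with USAG-1 overexpression (log2 fold change -0.24, SE 0.15), and it was called lower without control replicate 3 (-0.41, adjusted p = 0.00216 by edgeR's quasi-likelihood test).

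**Figure D2:**
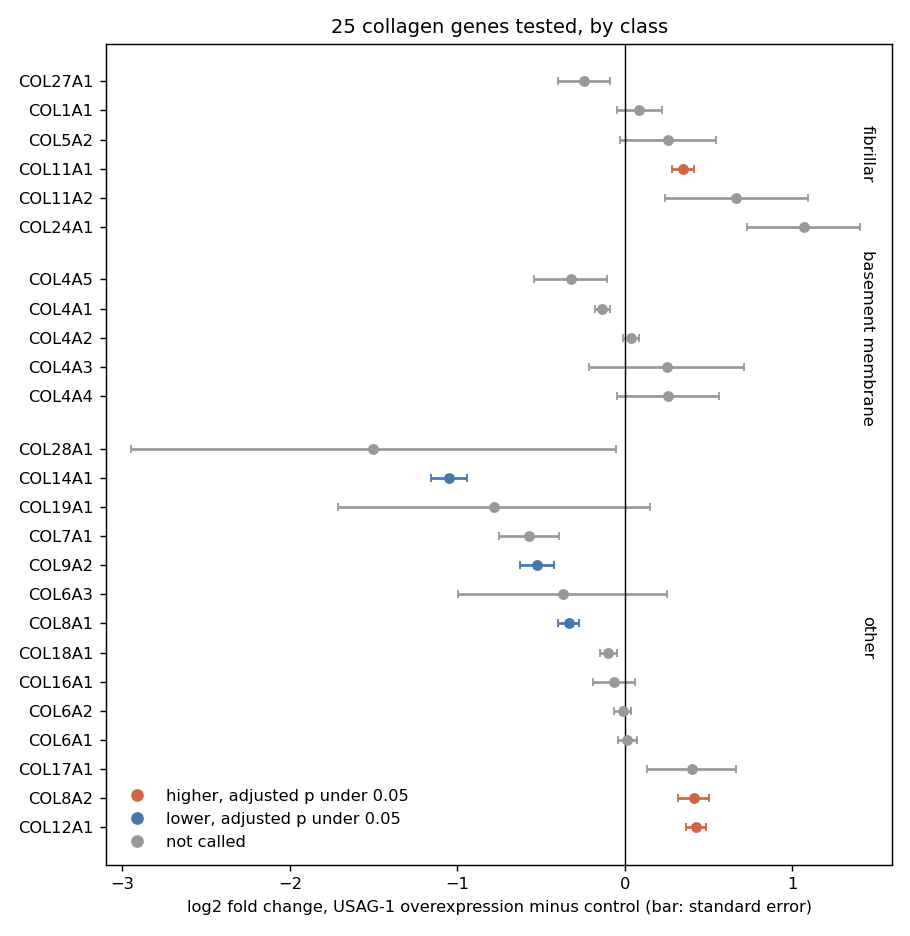
Log2 fold change (horizontal axis, USAG-1 overexpression minus control) of the 25 collagen genes tested, grouped by class, with the standard error as a bar and colour for the call at an adjusted p under 0.05. The 6 called genes have log2 fold changes between -1.05 and 0.43, and none of the 5 collagen IV chains is called.

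Of the 6 chains of collagen IV, 5 were tested and 0 were called by edgeR, which called 15.9% of all genes tested. So few genes allow no reading of this share. In edgeR, 1 had an unadjusted p under 0.05. DESeq2's Wald test called 1 and limma-voom 0. That gene was COL4A1 (ENSG00000187498; chromosome 13, 110148963 to 110307157), which with COL4A2 (ENSG00000134871; chromosome 13, 110305812 to 110513209) makes the collagen IV that is found in nearly all basement membranes. COL4A1 had 1265, 1277 and 1289 CPM in the control libraries and 1144, 1180 and 1167 CPM with USAG-1 overexpression. These values were lower in all 3 USAG-1-overexpressing libraries, at a log2 fold change of -0.13 (SE 0.05, adjusted p = 0.0854 by edgeR's quasi-likelihood test). It was called by DESeq2's Wald test (adjusted p = 0.0288), which called 20.7% of all genes tested. It was also called without control replicate 3 (adjusted p = 0.00928 by edgeR's quasi-likelihood test), a fit that called 27% of all genes tested. There the log2 fold change was smaller in size (-0.12) and its SE fell to 0.03. COL4A1 in control replicate 3 was itself close to the other control libraries. COL4A2 had 1181, 1235 and 1178 CPM in control and 1208, 1254 and 1225 CPM with USAG-1 overexpression, with overlap between the groups (log2 fold change 0.04, SE 0.05).

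The counts of COL4A1 over those of COL4A2 were 1.07, 1.03 and 1.09 in the control libraries and 0.947, 0.941 and 0.953 in the USAG-1-overexpressing libraries. Within a library this ratio does not depend on scaling, and it was lower in every USAG-1-overexpressing library (difference in means -0.119, two-sided exact permutation test, p = 0.1, the smallest p that 3 against 3 allow). This ratio was chosen after its values were seen, and 3 values apart from 3 always give this p, so the test adds nothing to them. The ratio of COL6A1 to COL6A2 counts averaged 1.24 in control and 1.26 with USAG-1 overexpression (two-sided exact permutation test, p = 0.6). COL4A1 and COL4A2 lie head to head on opposite strands, and in the deposited table their 5′ ends overlap by 1346 bases. The sources used here do not state how the authors counted reads in such stretches, so their assignment to either chain is uncertain.

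The remaining collagen IV chains were low. COL4A5, which with COL4A3 and COL4A4 forms the network of the glomerular basement membrane, had 232, 168 and 234 counts in control and 195, 170 and 147 with USAG-1 overexpression (log2 fold change -0.32, SE 0.22). COL4A3 had 10 to 30 counts in control and 18 to 24 with USAG-1 overexpression (log2 fold change 0.25, SE 0.46), and without control replicate 3 its log2 fold change was -0.02. COL4A3 overlaps MFF-DT on the other strand, a gene with more counts. For COL4A4 the counts were 54 to 96 in control and 65 to 108 with USAG-1 overexpression (log2 fold change 0.26, SE 0.30), and the log2 fold change was 0.59 without control replicate 3. The start sites of COL4A4 and COL4A3 on chromosome 2 are separated by 418 bases in the table, and those of COL4A6 and COL4A5 on chromosome X by 340 bases. In these 3 chains the groups overlapped. COL4A6 had 4 counts in control replicate 1 and 0 in the other 5 libraries.

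Of the 25 other collagens, 14 were tested and 5 were called, which is 35.7% against 15.9% of all genes tested. Among the FACITs, 5 of 9 genes were tested and 3 were called (60%, against 15.9% of all genes tested). COL14A1 and COL9A2 fell while COL12A1 rose. COL14A1 (ENSG00000187955; chromosome 8, 120059780 to 120370917) encodes collagen XIV, which binds to the surface of collagen I fibrils. It had 60.4, 59.2 and 45.8 CPM in the control libraries and 27.7, 26.4 and 25.9 CPM in the USAG-1-overexpressing libraries. The lowest control library, replicate 3, was still well above the highest USAG-1-overexpressing library. The log2 fold change was -1.05 (SE 0.11, adjusted p = 9.91e-04 by edgeR's quasi-likelihood test), with the largest size among the called collagens. COL14A1 passed the threshold in all 14 alternatives, between -1.16 and -0.98.

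COL12A1 (ENSG00000111799; chromosome 6, 75084326 to 75206053) encodes collagen XII, a FACIT of the same structural type as collagen XIV that is found on fibrils of tissues under tension. Its level was 41.5, 41.8 and 38.6 CPM in control and 53.5, 54.9 and 55.4 CPM with USAG-1 overexpression. Each group varied by little and the groups were apart. The log2 fold change was 0.43 (SE 0.06, adjusted p = 0.00346 by edgeR's quasi-likelihood test). Like COL14A1, it passed the threshold in all 14 alternatives, between 0.40 and 0.45. COL9A2 (ENSG00000049089; chromosome 1, 40300489 to 40317388) encodes a chain of collagen IX, a FACIT known from cartilage. It had 22.8, 20.8 and 18.2 CPM in control and 14.0, 14.3 and 14.6 CPM with USAG-1 overexpression, and the groups did not overlap. The log2 fold change was -0.52 (SE 0.10, adjusted p = 0.0114 by the same edgeR test). Its call was lost without any of the 3 USAG-1-overexpressing libraries, with an adjusted p of up to 0.0584. The partner chains COL9A1 and COL9A3 had 0 counts in all libraries and at most 14 counts, respectively. COL16A1, the gene of collagen XVI, had 62.4, 57.0 and 43.4 CPM in control and 55.0, 48.9 and 52.2 CPM with USAG-1 overexpression, and the USAG-1-overexpressing values lay within the range of the control values (log2 fold change -0.06, SE 0.13). That range rests on control replicate 3, without which the log2 fold change was -0.19 (adjusted p = 0.0546 by edgeR's quasi-likelihood test), and without control replicate 1 it was 0.05.

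The chains of collagen VIII, a network collagen that is produced by vascular and other cells, moved in opposite directions. COL8A1 (ENSG00000144810; chromosome 3, 99638475 to 99799217) had 71.4, 79.8 and 73.2 CPM in control and 58.9, 58.7 and 60.5 CPM with USAG-1 overexpression. All USAG-1-overexpressing values were below all control values. Its log2 fold change was -0.33 (SE 0.06, adjusted p = 0.0112 by edgeR's quasi-likelihood test). COL8A2 (ENSG00000171812; chromosome 1, 36095239 to 36125222) had 16.3, 14.7 and 17.3 CPM in control and 20.2, 22.0 and 22.2 CPM with USAG-1 overexpression, so its USAG-1-overexpressing libraries were all higher. Its log2 fold change was 0.41 (SE 0.09, adjusted p = 0.0211 by the same edgeR test). COL8A1 was not called when any USAG-1-overexpressing library was left out (adjusted p up to 0.0651), and COL8A2 was not called in those fits or without control replicate 1 or 2 (up to 0.0903). The direction of each held in all 14 alternatives, with ranges of -0.36 to -0.28 and 0.35 to 0.47.

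COL7A1 (ENSG00000114270; chromosome 3, 48564073 to 48595267), the gene of collagen VII in the anchoring fibrils that fasten basement membranes to the tissue below, depended on a single library. It had 497 and 507 CPM in control replicates 1 and 2, 304 CPM in control replicate 3, and 318, 265 and 296 CPM in the USAG-1-overexpressing libraries. Control replicate 3 thus fell inside the range of the USAG-1-overexpressing libraries. The log2 fold change was -0.57 (SE 0.18, adjusted p = 0.0654 by edgeR's quasi-likelihood test), and without control replicate 3 it was -0.77 (SE 0.06, adjusted p = 6.59e-05, same test). DESeq2's Wald test called it with all 6 libraries (adjusted p = 0.00367). Of the collagen genes not called, COL7A1 and COL24A1 lay nearest the threshold, at unadjusted p of 0.012 and 0.0133 by edgeR's quasi-likelihood test. Of those called, COL8A2 and COL11A1 lay nearest it, at 0.002 and 7.63e-04 in the same test. The 5 genes in which log2 CPM in control replicate 3 was furthest below the mean of the other control libraries, apart from genes under 100 counts, were COL7A1 (-0.72), COL27A1 (-0.60), COL16A1 (-0.46), COL14A1 (-0.38) and COL9A2 (-0.25).

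**Figure D3:**
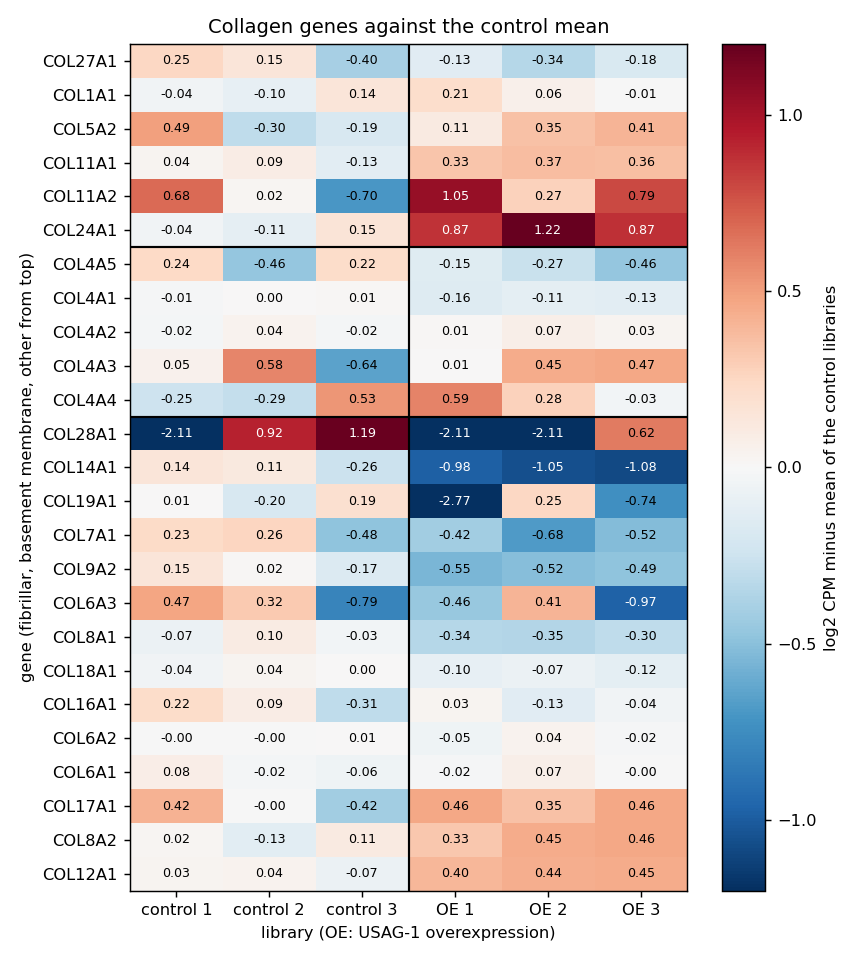
Log2 CPM (prior count 2) minus the mean of the control libraries for the 25 collagen genes tested (rows, by class) in each of the 6 libraries (columns); the colour scale ends at 1.2 in either direction, and each cell prints its value. In control replicate 3 COL7A1 stands at -0.48, beside -0.42 to -0.68 in the USAG-1-overexpressing libraries, whereas COL12A1 and COL14A1 split by group.

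Collagen VI and collagen XVIII differed little between the groups. COL6A1, the gene of a collagen VI chain, had 387, 362 and 353 CPM in control and 363, 385 and 366 CPM with USAG-1 overexpression (log2 fold change 0.02, SE 0.06). For COL6A2, the chain encoded next to it on chromosome 21, the values were 295, 295 and 297 CPM in control and 285, 304 and 292 CPM with USAG-1 overexpression (log2 fold change -0.01, SE 0.05). Both overlapped between the groups. COL6A3, the third chain of the common collagen VI molecule, had 6 to 20 counts in any library (log2 fold change -0.37, SE 0.62, and -0.69 without control replicate 3). Of these 3 chains, 0 were called by edgeR, DESeq2 or limma-voom, where edgeR called 15.9% of all genes tested. In edgeR, 0 had an unadjusted p under 0.05. COL18A1 (ENSG00000182871; chromosome 21, 45405165 to 45513720), a basement membrane collagen whose C-terminal fragment is endostatin, had 305, 321 and 314 CPM in control and 292, 298 and 288 CPM with USAG-1 overexpression. The groups did not overlap, but the difference was small and not called (log2 fold change -0.10, SE 0.05, adjusted p = 0.231 by edgeR's quasi-likelihood test). COL18A1 shares part of its span with SLC19A1 on the other strand, which had 16.4% as many counts, and how the authors assigned reads in such spans is not stated.

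The last tested members had few counts. COL17A1, a transmembrane collagen of hemidesmosomes, had 41 to 73 counts in control and 73 to 83 with USAG-1 overexpression (log2 fold change 0.40, SE 0.27, and 0.22 without control replicate 3). COL19A1 had at most 14 counts in any library and overlaps the much more highly counted LMBRD1 on the opposite strand. COL28A1 had 0, 16 and 17 counts in control and 0, 0 and 11 with USAG-1 overexpression. None of these genes was called, and at such counts only a large difference could be.

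The 17 collagen genes that did not pass the filter were COL1A2, COL2A1, COL3A1, COL5A1, COL5A3, COL4A6, COL6A6, COL9A1, COL9A3, COL10A1, COL13A1, COL15A1, COL20A1, COL21A1, COL23A1, COL25A1 and COL26A1. Of these, 6 were at 0 counts in every library (COL1A2, COL2A1, COL9A1, COL13A1, COL23A1 and COL25A1), and the highest count of any of them was 18, for COL10A1 in control replicate 3. COL10A1 and COL9A3 overlap NT5DC1 and TCFL5 on the other strand, genes with far more counts, so their few counts are uncertain. Expression of these 17 genes was not detectable or near the limit in both groups. COL6A5 and COL22A1 were not analysed here.

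**Figure D4:**
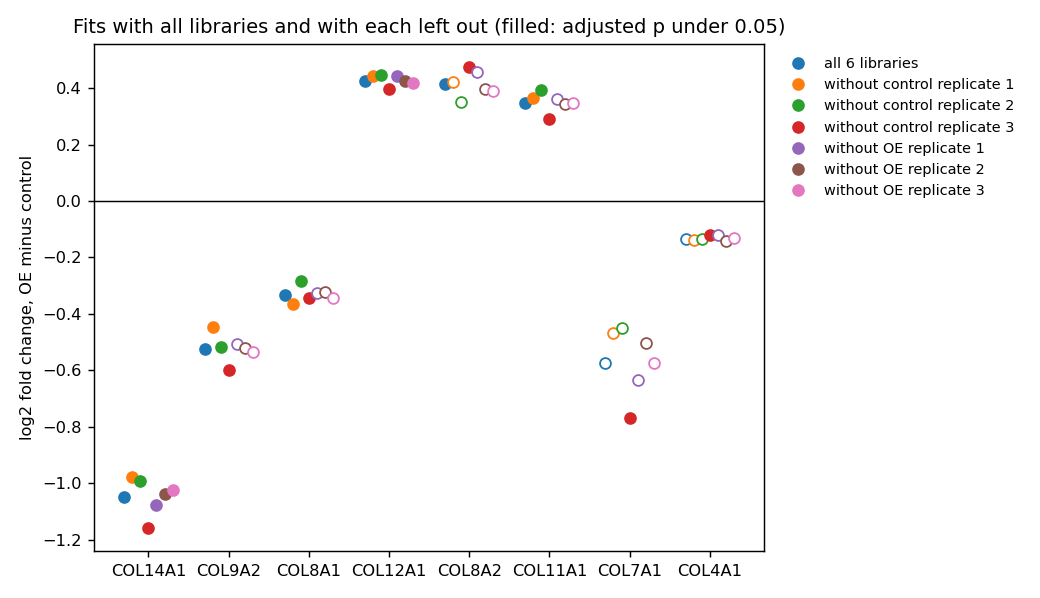
Log2 fold change (vertical axis, USAG-1 overexpression minus control) of 8 collagen genes (horizontal axis) in the fit with all 6 libraries and with each library left out in turn, filled where the adjusted p was under 0.05. COL14A1 and COL12A1 are filled in every fit, COL8A1, COL9A2, COL11A1 and COL8A2 are open in the 3 fits that leave out a USAG-1-overexpressing library, COL8A2 is open also without control replicate 1 or 2, and COL7A1 and COL4A1 are filled only without control replicate 3.

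The genes that make, trim, cross-link and bind collagen were read from lists. Of 55 such genes in the table, 47 were tested and 14 were called by edgeR, 6 higher and 8 lower, which is 29.8% against the 15.9% of all genes tested. Their median log2 fold change was -0.09. In 27 of the 47 genes the groups did not overlap, against 37.6% of all genes tested.

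Among 20 modifying enzymes and chaperones, all tested, 2 rose and 2 fell. This is 20%, near the 15.9% of all genes tested that were called, and nothing particular to these genes is read from it. P4HA2, a catalytic subunit of prolyl 4-hydroxylase, which makes the hydroxyproline that stabilizes the triple helix, had 80.3, 76.4 and 92.7 CPM in control and 63.2, 64.3 and 64.0 CPM with USAG-1 overexpression (log2 fold change -0.38, adjusted p = 0.0157 by edgeR's quasi-likelihood test). PLOD2, a lysyl hydroxylase that acts on collagen telopeptides, fell by 0.32 on the log2 scale, from 213 to 272 CPM in control to 192 to 203 CPM with USAG-1 overexpression, and lost its call in 8 of 14 alternatives, including those without control replicate 1 or 2 or any USAG-1-overexpressing library. PLOD3, a lysyl hydroxylase that also glycosylates collagen, rose by 0.26 on the log2 scale (102 to 114 CPM in control, 130 to 132 CPM with USAG-1 overexpression). FKBP14, a prolyl isomerase of the endoplasmic reticulum, rose by 0.39 (23.4 to 24.7 CPM and 29.1 to 34.6 CPM). P4HA2 was not called without any 1 of the USAG-1-overexpressing libraries, PLOD3 without any of these or control replicate 2, and FKBP14 without USAG-1 overexpression replicate 1 or 2 or control replicate 2. PLOD3 overlaps ZNHIT1, which had 32.1% as many counts. P4HA1 (log2 fold change 0.09), P4HB (-0.05) and SERPINH1 (0.12), the collagen chaperone HSP47, were not called.

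Of the 6 tested genes that process procollagen, 1 rose and 1 fell (33.3% called, against 15.9% of all genes tested). ADAMTS3, a procollagen N-proteinase, had 71.1, 70.0 and 56.8 CPM in control and 125.0, 118.8 and 115.3 CPM with USAG-1 overexpression. Its groups were far apart, at a log2 fold change of 0.86 (SE 0.09, adjusted p = 0.00113 by edgeR's quasi-likelihood test), and it was called in all 14 alternatives. The related ADAMTS2 and ADAMTS14 did not pass the filter. PCOLCE2, an enhancer of the procollagen C-proteinase, fell by 0.50 on the log2 scale (12.9 to 15.0 CPM in control, 9.46 to 10.3 CPM with USAG-1 overexpression). Its call was lost without control replicate 2 or any USAG-1-overexpressing library. BMP1, the C-proteinase itself, had a log2 fold change of -0.21 (adjusted p = 0.0547 by edgeR's quasi-likelihood test).

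Of 6 cross-linking enzymes, 3 were called and all 3 fell, where 15.9% of all genes tested were called and 6.91% were called lower. LOXL2, a lysyl oxidase that cross-links collagen IV, had 1098, 1121 and 1130 CPM in control and 802, 856 and 801 CPM with USAG-1 overexpression. The lowest control library was above the highest USAG-1-overexpressing library by more than the range of either group. The log2 fold change was -0.45 (SE 0.05, adjusted p = 0.00146 by edgeR's quasi-likelihood test), and LOXL2 was called in all 14 alternatives. LOXL4 fell by 0.78 on the log2 scale (16.9 to 22.3 CPM in control, 9.87 to 13.0 CPM with USAG-1 overexpression), without a call when USAG-1 overexpression replicate 1 or 2 was left out. LOXL1 fell by 0.44 (15.5 to 20.5 CPM and 12.5 to 14.0 CPM), a call lost in 5 of 14 alternatives: without control replicate 2, without each USAG-1-overexpressing library and without the filter on low counts. LOXL1 overlaps LOXL1-AS1, which had 45.0% as many counts. LOX (0.16) and PXDN (0.22), a peroxidase that forms the sulfilimine bonds of collagen IV, had positive log2 fold changes that were not called, with adjusted p = 0.118 and 0.0598 in the same edgeR test. LOXL3 had a log2 fold change of -0.54 (adjusted p = 0.0676 in the same edgeR test) and overlaps HTRA2, a gene with more counts.

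Of 7 tested collagen receptors, 2 were called and both fell. This is 28.6%, where 15.9% of all genes tested were called and 6.91% were called lower. MRC2, the endocytic receptor that takes up collagen for degradation, had 65.7, 61.4 and 60.5 CPM in control and 40.9, 43.6 and 39.8 CPM with USAG-1 overexpression, without overlap. Its log2 fold change was -0.59 (SE 0.07, adjusted p = 0.00127 by edgeR's quasi-likelihood test), and it was called in all 14 alternatives. LAIR1, an inhibitory collagen receptor of leukocytes, had 1.10, 1.44 and 1.57 CPM in control and 0.152, 0.298 and 0.162 CPM with USAG-1 overexpression (log2 fold change -2.73, SE 0.39, adjusted p = 0.0033 by edgeR's quasi-likelihood test). The 10 T cell markers, all lower as given above, moved with LAIR1, and their part in it was not tested. ITGB1 (0.05), ITGA2 (-0.15) and ITGA1 (-0.28), which encode integrin subunits, and DDR1 (-0.15), a receptor tyrosine kinase, had log2 fold changes that were not called, and ITGA1 overlaps PELO, a gene with more counts.

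Of 5 basement membrane partners of collagen IV, 2 rose. This is 40%, where 15.9% of all genes tested were called and 8.95% were called higher. NID1, encoding nidogen-1, which links collagen IV to laminin, had 358, 364 and 382 CPM in control and 461, 480 and 456 CPM with USAG-1 overexpression (log2 fold change 0.34, SE 0.05, adjusted p = 0.005 by edgeR's quasi-likelihood test), and the call held in all 14 alternatives. NID2, its paralog, rose by 0.31 on the log2 scale (37.8 to 43.3 CPM in control, 50.3 to 50.9 CPM with USAG-1 overexpression). Its call was lost, at log2 fold changes from 0.26 to 0.32, when control replicate 2 or any USAG-1-overexpressing library was left out. NID2 overlaps RTRAF, which had 137% as many counts. HSPG2 (perlecan, -0.01), AGRN (agrin, -0.09) and SPARC (0.12) had log2 fold changes that were not called. Of the 3 tested proteoglycans of fibrils, LUM rose (33.3% called, against 15.9% of all genes tested). LUM encodes lumican, which regulates the assembly of collagen fibrils, and it had 33.2, 34.6 and 33.0 CPM in control and 48.0, 50.3 and 51.0 CPM with USAG-1 overexpression. Its groups were apart, with a log2 fold change of 0.57 (SE 0.06, adjusted p = 0.00114 by edgeR's quasi-likelihood test), and it was called in all 14 alternatives. LUM is also the fibroblast marker named above. BGN and FMOD, which encode biglycan and fibromodulin, were not called, and BGN overlaps HAUS7, a gene with far more counts. DCN was not analysed here.

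**Figure D5:**
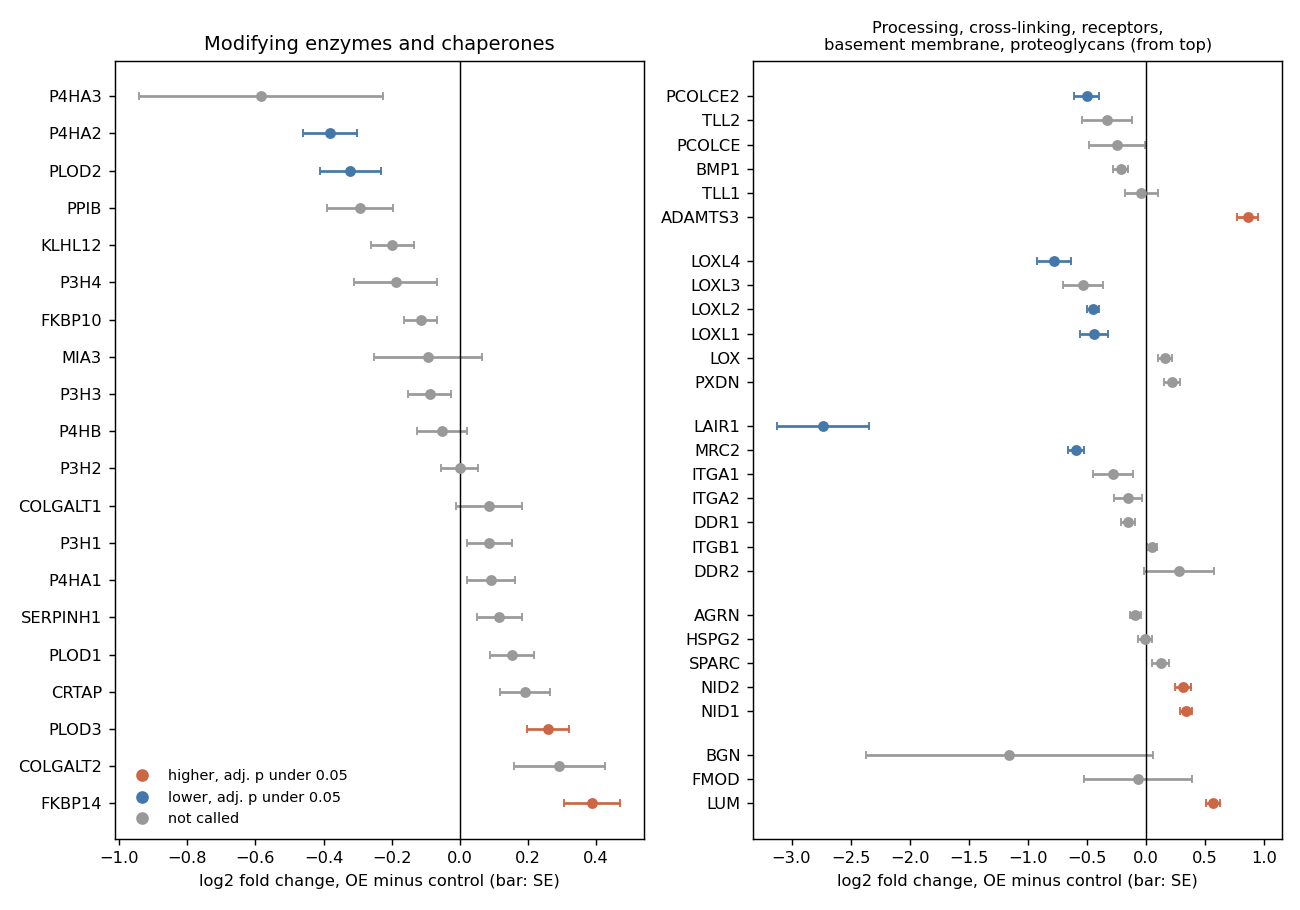
Log2 fold change (horizontal axes, USAG-1 overexpression minus control; the scales differ) of the 47 tested genes that modify, process, cross-link or bind collagen, with the standard error as a bar and colour for the call at an adjusted p under 0.05. ADAMTS3, LUM and the nidogen genes are called higher, and LOXL1, LOXL2, LOXL4, MRC2 and LAIR1 are called lower.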

How the data were processed

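RNA from 6 libraries of HK2 cells (3 control, 3 USAG-1 overexpression) was sequenced as paired reads of 150 bases after oligo(dT) selection, per the labels, by a strand-specific protocol. Elsewhere the labels mention rRNA depletion. The authors deposited 1 table of whole-number counts per gene, not normalized, under a name that speaks of FPKM. The submitters' processing notes name hg38, cutadapt 1.9 and FastQC; the aligner, the counter and the annotation are not given in the sources used here. A reference of the human genome was not used here, so no sequence is printed.

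Low-count genes were removed with filterByExpr. After TMM scaling, USAG-1 overexpression was compared with control by edgeR's quasi-likelihood test (version 4.0.16, glmQLFit and glmQLFTest, in R 4.3.3), with Benjamini-Hochberg adjustment over 18188 genes. A call is an adjusted p under 0.05 at any fold change. DESeq2 (1.42.0), the tool in the paper's methods, and limma-voom (limma 3.58.1) served as alternatives. Standard errors came from dividing each log2 fold change by the root of its F statistic. The code was tested on simulated data.

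The named genes are SOSTDC1, every called collagen gene, the tested chains of collagens I, III, IV, V, VI and XVIII, genes next to the threshold, and up to 4 called genes of each partner list with the smallest p; other genes were named after their values were seen. Members and lists, typed from general knowledge, were chosen with earlier results of these data known. The other alternatives were DESeq2's size factors, library sizes alone, a replicate block, each library left out, a minimum of 10 counts in all libraries, no low-count filter and mitochondrially encoded genes left out.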

Additional observations from a re-analysis of the deposited data

How the results depend on the processing

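With all libraries, edgeR called 3 collagen genes higher and 3 lower. DESeq2's Wald test called 5 lower (COL7A1 and COL4A1 in addition) and 3 higher. Of all genes tested, it called 20.7%, against 15.9% by edgeR, so the added genes are not read as particular to collagens. With a library left out, the number called higher ranged from 1 to 3 and the number called lower from 1 (without any USAG-1-overexpressing library) to 6 (without control replicate 3, which added COL7A1, COL4A1 and COL27A1). Only COL12A1 and COL14A1 remained in each of the 3 fits without a USAG-1-overexpressing library. Over all genes, these fits called from 1137 genes (USAG-1 overexpression replicate 2 left out) to 5091 (control replicate 3 left out), against 2884 with all libraries. Among the partner genes, 6 were called higher and 8 lower, and with a library left out the counts ranged from 3 to 13 and from 3 to 11. The median log2 fold change of the collagen genes tested, -0.01, was -0.12 without the filter on low counts, where 36 collagen genes were tested, and -0.02 to 0.03 with a library left out. It was above 0 with library sizes alone (0.01) and with at least 10 counts in every library (0.02). Of 553 values of named genes under the alternatives, 500 kept their side of the threshold, 47 lost the call, 6 gained it, and no called gene changed direction. The correlation of same-numbered libraries' deviations from the group means was 0.07, -0.05 and 0.04. Between differently numbered libraries it ranged from -0.14 to 0.11. With 3 libraries in each group, these values cannot decide whether the replicate numbers pair the libraries. With a replicate block, the same 6 collagen genes were called, 3 higher and 3 lower, and 2381 of all genes tested. Depth limits the genes with few counts, in which only large differences could be called.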
